A study of Mus musculus with 10 samples.

Results

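Bone marrow stem and progenitor cells of mice that developed myelodysplastic syndrome (MDS) after loss of Ezh2 were compared with the same cells of a wild-type (WT) mouse sample. The comparison rests on 3 of the 10 arrays in the series: the 2 arrays of Ezh2-deleted cells whose disease label is MDS alone, called MDS replicate 1 and replicate 2 here, and the 1 array titled as wild type at 9-12 months, which lies on the same slide. All 3 samples were LSK cells, that is, cells without lineage antigens that carry Sca-1 and c-Kit, sorted as CD45.2-positive from bone marrow of strain C57BL/6 mice 9-12 months after transplantation. The WT cells had the genotype Cre-Ert, a Cre recombinase that tamoxifen activates, and the MDS cells the genotype Cre-Ert;Ezh2fl/fl, in which both Ezh2 alleles are floxed. Cre-Ert and tamoxifen were thus shared by the groups, and the WT sample is the control for both. The labels do not say which cells drive the Cre or how completely Ezh2 was removed, and they do not say whether the WT sample pooled several mice. The other arrays hold 3 samples with features of both MDS and myeloproliferative neoplasm (MDS/MPN), 1 of which carries the disease label MDS/MPN_TC, where the labels do not explain TC, 1 of undetermined disease and 1 of mixed disease on the same slide, and a WT and an Ezh2-deleted array labelled 3 months on another slide.

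Ezh2 is the catalytic subunit of Polycomb repressive complex 2 (PRC2), which methylates lysine 27 of histone H3 and so helps to keep genes of other lineages and stages silent. Ezh1 is its paralog and can take its place in the complex. The LSK gate holds the blood-forming stem cells and the multipotent progenitors that come from them. MDS is a clonal disease of these cells in which blood formation is ineffective, and inactivating mutations of EZH2 are found in human patients.

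RNA was labelled with Cy3 from 0.02 µg per sample and hybridised to Agilent one-colour arrays of 55681 probes. Values below are log2 intensities over the 75th percentile of the array, so that 0 is that percentile and 1 unit is a 2-fold step, and differences are MDS minus WT on that scale. The 75th percentile was 133.5 intensity units on the WT array, 166 in MDS replicate 1 and 160.3 in MDS replicate 2. The share of probes well above background was 38.68% on the WT array, 39.42% in replicate 1 and 40.58% in replicate 2, and no spot was saturated. The 3 arrays lie in the same line of the slide. The deposited value table exchanges 2 pairs of time labels: its WT and mixed disease columns of 9-12 months matched scanner files labelled 3 months, and the reverse. Every statement here takes the WT array of the slide that holds the MDS arrays. Values against the WT array of the other slide are given beside many results. The closing section lists the named genes that it turns, among those above background on that array or on both MDS arrays. Which of the arrays with exchanged labels came from which time cannot be told apart from the labels.

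The genes of the gate were measured in all 3 samples. Kit, the stem cell factor receptor c-Kit, read 4.91 on the WT array, 5.03 in MDS replicate 1 and 4.95 in replicate 2. Ly6a, which encodes Sca-1, read 4.40, 4.37 and 4.08, and the progenitor antigen Cd34 8.41, 7.91 and 8.05. Among the antigens that define the lineage-negative gate, the T cell antigen Cd8a was not well above background on any of the 3 arrays, whereas Cd3e, Cd4, Itgam and Klrb1c were so on all 3. The B cell antigen Ms4a1 was well above background on both MDS arrays and not on the WT array. A bulk sample cannot tell apart more cells of a type from more RNA per cell, and this holds for every lineage gene below.

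With 1 WT array, no gene passed the test. Of 19134 features tested, 11780 of them named genes, limma called 0 higher and 0 lower in MDS (0.0% each, lowest adjusted p 0.116), with 251 higher and 528 lower at an unadjusted p under 0.05. The spread in that fit came from the 2 MDS and 3 MDS/MPN arrays of the slide, and the WT array was assumed to vary as they do. With the MDS and WT arrays alone, where the 2 MDS arrays give the spread, limma called 136 higher and 381 lower. Quantile normalization gave 4 higher and 191 lower, and scaling on the median of the probes above background gave 0 higher and 61 lower. For a single gene, an exact permutation test of 1 array against 2 cannot go below p = 0.333. The labels do not say that the samples were independent beyond listing them separately, so these p-values measure the spread between the samples only.

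The results below therefore describe where both MDS arrays stood at least 2-fold on the same side of the 1 WT array that they share. That held for 499 features above WT (2.61% of those tested) and 805 below it (4.21%). Both arrays were above WT at any distance for 5425 features (28.4%) and below it for 8655 (45.2%), and the median difference over all features was -0.10. Replicate 1 was at least 2-fold from WT in 2248 features (11.7%) and replicate 2 in 2089 (10.9%), while the MDS arrays were at least 2-fold apart in 957 (5.0%). Of the 499 features above WT, 249 were not well above background on the WT array. Of the 805 below WT, 569 were not above background on either MDS array, and 386 passed that call on the slide for the WT sample alone. Among features above background on all 3 arrays, 250 were at least 2-fold above and 165 below, so that the balance of the counts turned with the filter, from 38.27% above WT to 60.24%.

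**Figure D1:**
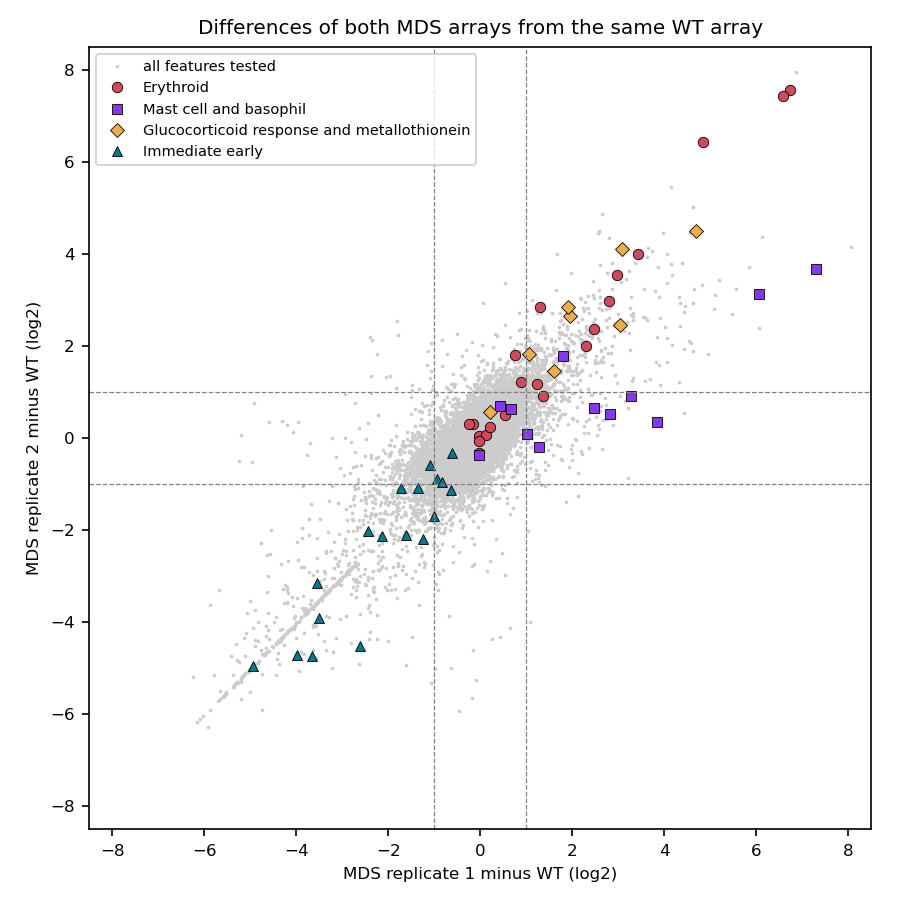
Difference of MDS replicate 1 (horizontal axis, log2) and MDS replicate 2 (vertical axis, log2) from the same WT array for the 19134 features tested (grey) and the members tested of 4 gene lists (coloured); dashed lines mark 2-fold. Globin genes lie at the upper right, immediate early genes at the lower left, and the narrow diagonal line at the lower left holds features not above background on either MDS array.

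Gene lists of lineages, pathways and complexes separated into a few that stood away from the WT array and many that did not. The late neutrophil granule list had a median difference of 2.36 over 11 genes tested, the glucocorticoid and metallothionein list 2.34 over 8, the mast cell and basophil list 1.62 over 12, the eosinophil list 1.42 over 7 and the erythroid list 1.21 over 21. The immediate early list was at -1.79 over 18 genes and the interferon response list at -0.66 over 14. A gene could enter through its brighter group alone, so the medians over all genes of a list on the array were also taken: 0.52 over 27 erythroid genes, 2.09 over 14 late neutrophil genes, 2.31 over 9 glucocorticoid and metallothionein genes and -1.56 over 20 immediate early genes, beside -0.28 over all 48997 features. Over the genes above background on all 3 arrays the medians were 1.05 for 17 erythroid, 2.59 for 7 late neutrophil, 1.11 for 10 mast cell and basophil, and -1.56 for 16 immediate early genes. The members, their lists and the comparison were chosen with results of these data known, and the counts are given as a description. Each list count at 2-fold stands beside 2.61% of all features tested above WT and 4.21% below it. Counts at any distance stand beside 28.4% above and 45.2% below. Genes of cell growth stayed close to the median of all features: 28 ribosomal protein genes were at -0.02, 14 glycolysis genes at -0.01, 22 mitosis genes at -0.17, 27 DNA replication genes at -0.20 and 30 genes of the respiratory chain at -0.14, with 0 members at least 2-fold from WT in both arrays. Against the WT array of the other slide, the mitosis list turned to 0.67, DNA replication to 0.37 and glycolysis to 0.14.

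**Figure D2:**
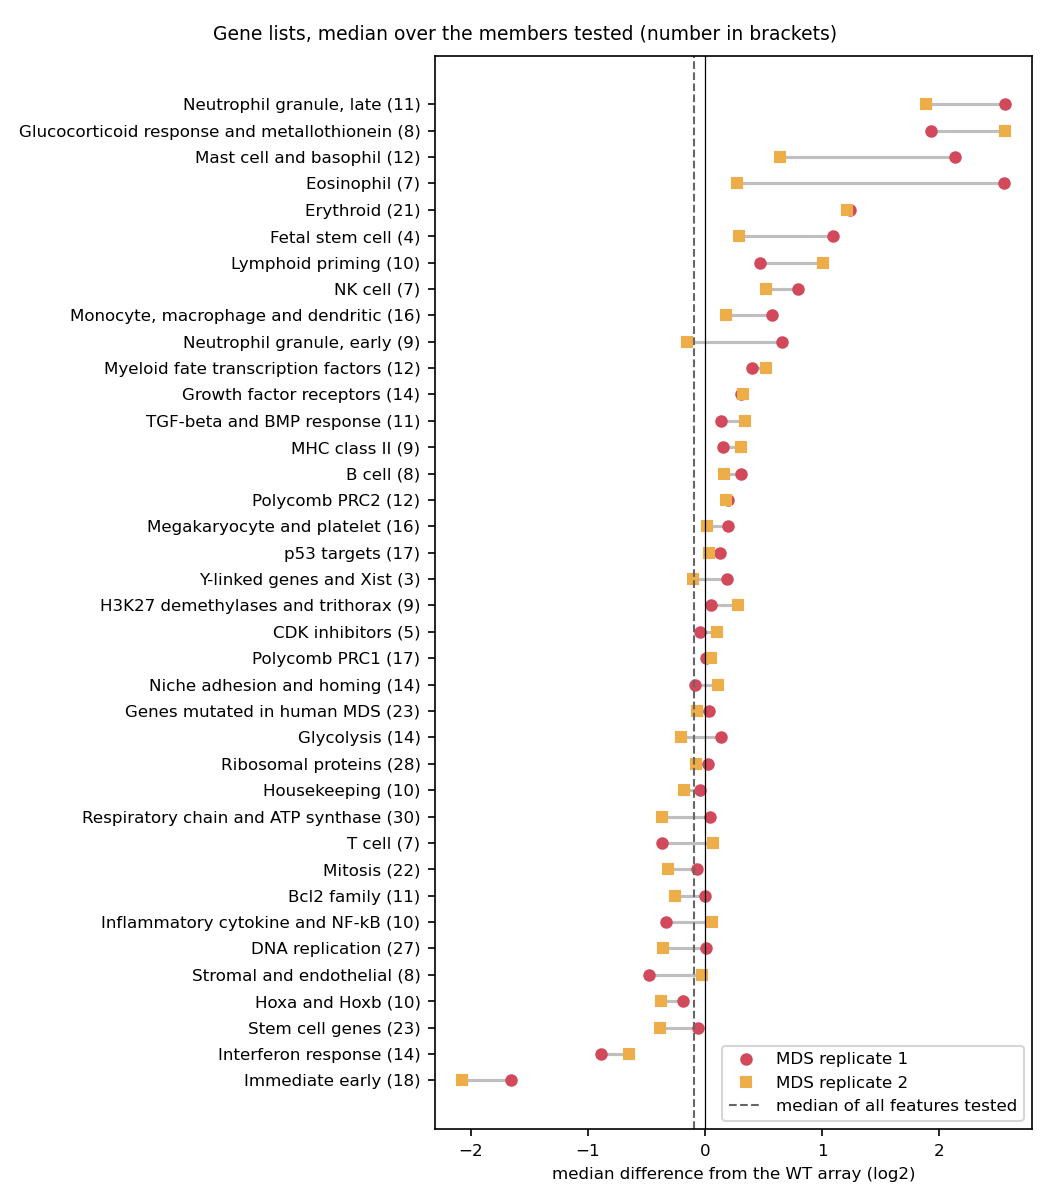
Median difference from the WT array (log2, horizontal axis) over the tested members of each gene list, for MDS replicate 1 (circles) and MDS replicate 2 (squares); the dashed line is the median of all features tested. The eosinophil and mast cell lists stand far above the WT array in replicate 1 and closer to it in replicate 2, whereas the erythroid, glucocorticoid and immediate early lists are alike in both.

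The targeted gene was not lower by more than the spread. The single probe of Ezh2 read 2.48 on the WT array, 2.08 in MDS replicate 1 and 1.97 in replicate 2, a difference of -0.45 ± 0.60 (SE, 2 MDS arrays and 1 WT array, limma adjusted p = 1.0). Both MDS arrays were below the WT array of their slide, but the WT array of the other slide read 1.98, which turns the difference to 0.05. No source used here places this probe relative to the floxed exons, so it does not show whether the allele was recombined. Ezh1 read 3.66 on the WT array and 4.04 and 4.25 on the MDS arrays, a difference of 0.49 ± 0.43, and a second probe was 0.63 above WT, while the other was not above background on the WT array; against the WT array of the other slide, at 4.45, the difference was -0.30. Eed and Suz12, the core subunits that the methyltransferase needs for activity, differed by -0.23 ± 0.44 and 0.38 ± 0.75. Of the 12 PRC2 genes tested, 6 were above WT in both arrays and 4 below, none by 2-fold with the probe used, and with a median of 0.15. A second, dimmer probe of Mtf2, an accessory subunit, read -0.72 on the WT array and was not above background on either MDS array, while the probe used read 3.48, 3.16 and 2.80.

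Among 17 PRC1 genes, which encode the complex that ubiquitinates histone H2A, 1 stood at least 2-fold above WT in both arrays and 0 below. This was Bmi1, a subunit that stem cells need for self-renewal, at 1.86 on the WT array, 3.01 in MDS replicate 1 and 2.89 in replicate 2, a difference of 1.08 ± 0.43, and its second probe was 1.16 above WT. Cbx8, a subunit that reads methylated lysine 27, read -0.29, -1.07 and -1.67. Homeobox genes are known targets of PRC2. Of 10 Hoxa and Hoxb genes tested out of 21 on the array, 0 were 2-fold above WT and 1 below. That 1 was Hoxb2, at 0.08 on the WT array, -2.67 in replicate 1 and -1.36 in replicate 2, above background on 1 MDS array. The list median was -0.265, and -2.36 over 13 genes against the WT array of the other slide. Hoxa10, a homeobox gene of early progenitors, was 1.1 ± 0.53 above WT, but -0.61 against the WT array of the other slide. The 5 cell cycle inhibitors tested had a median of 0.03, which turned to -1.93 against the WT array of the other slide. In the fetal stem cell list, 1 of 4 tested genes was 2-fold above WT: Hmga2, a chromatin protein of fetal stem cells, read -1.66 on the WT array, 0.06 in replicate 1 and 0.53 in replicate 2. Both MDS arrays held Hmga2 above either WT array, since that of the other slide read -1.11.

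The alpha-globin genes and Hbb-b1 had the largest mean differences of the list members tested. Of 21 erythroid genes tested, 10 stood at least 2-fold above WT in both MDS arrays and 0 below, with medians of 1.24 in replicate 1 and 1.21 in replicate 2, and 1.13 when values not above background were raised to the lowest signal above it. The alpha-globin gene Hba-a2 read 0.48 on the WT array, 7.07 in replicate 1 and 7.92 in replicate 2, a difference of 7.01 ± 2.20 (limma adjusted p = 0.700). Hba-a1 read -2.14, 4.60 and 5.43, a difference of 7.15 ± 2.08 (adjusted p = 0.597). Both MDS arrays were above both WT arrays, for which the other slide gave 0.40 for Hba-a2 and -2.36 for Hba-a1. The adult beta-globin genes followed: Hbb-bt read 4.32, 7.12 and 7.30, and Hbb-b2 -0.09, 3.34 and 3.90. Hbb-b1 was not above background on the WT array and stood at least 16.6-fold above it. Whether the probes of these beta-globin genes read separate transcripts was not tested. The count of 10 may thus hold the same signal more than once. A fold written as "at least" sets the mean of the brighter group against the lowest signal well above background on each dim array, or the dim probe's own where that is higher.

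The alpha-globin copies are near-identical, and their probes may read both transcripts. The 250 bases upstream of their starts are shown because they bear on this: in RefSeq sequence of GRCm38.p6, plus strand, they share a run of 247 bases, offset by 3. Hba-a1 is at chr11:32283422-32283671 and Hba-a2 at chr11:32296242-32296491. The GATA motif was searched only as AGATAA, on both strands as are the motifs below. That form was in neither alpha-globin window, while both windows hold TGATAA, which was not searched. AGATAA was in 6 of 17 windows of erythroid genes with an entry and in 9.99% of all 32851 promoter windows.
Hba-a1: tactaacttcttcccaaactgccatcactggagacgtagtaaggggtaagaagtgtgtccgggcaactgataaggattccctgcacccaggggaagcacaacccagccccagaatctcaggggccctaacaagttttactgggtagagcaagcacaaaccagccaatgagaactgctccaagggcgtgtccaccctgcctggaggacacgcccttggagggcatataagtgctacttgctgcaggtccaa
Hba-a2: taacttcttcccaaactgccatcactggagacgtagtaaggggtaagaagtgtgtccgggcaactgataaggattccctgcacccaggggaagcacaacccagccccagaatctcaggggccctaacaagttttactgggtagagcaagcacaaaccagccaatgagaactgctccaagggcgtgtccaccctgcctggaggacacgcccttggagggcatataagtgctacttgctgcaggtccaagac

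Erythroid genes outside the globins differed by less than the alpha-globins. Car1, an early erythroid carbonic anhydrase, read 0.18 on the WT array, 3.15 in replicate 1 and 3.73 in replicate 2. Rhd, a blood group antigen, read -1.12, 1.36 and 1.25, and Klf1, the activator of beta-globin, -1.31, -0.07 and -0.14. Alas2, which starts heme synthesis in red cells, and the membrane protein Slc4a1 were not above background on the WT array and stood at least 2.44-fold and at least 4.24-fold above it. Gata1, the erythroid regulator, was 0.52 ± 1.56 above WT. The summed signal of the 27 erythroid genes on the array was 203.7 times the 75th percentile on the WT array, 501.1 in replicate 1 and 676.2 in replicate 2, with 17, 21 and 21 genes above background. These are markers of cells outside the gate, and whether mature cells in the sort took part in this difference was not tested. The MDS/MPN arrays read 6.27, 0.88 and 6.21 for Hba-a2, so that the second of them was close to WT.

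Mast cell, basophil and eosinophil genes had higher medians above WT in replicate 1 than in replicate 2. In the mast cell and basophil list, 3 of 12 genes were 2-fold above WT in both arrays and 0 below, but the median was 2.14 in replicate 1 and 0.64 in replicate 2. Cma1, a mast cell chymase, was not above background on the WT array, and read 2.86 in replicate 1 and -0.77 in replicate 2, at least 11.6-fold above WT. Il1rl1, the receptor for interleukin 33, read -2.92 (not above background), 3.15 and 0.23, at least 18.2-fold above WT; its 2 other probes were above background in 1 MDS array only. Cpa3, a mast cell protease, read 1.98, 5.26 and 2.89, and Fcer1a, a chain of the IgE receptor, 0.47, 4.31 and 0.82. In both, replicate 2 lay closer to the WT array than to replicate 1. Prss34, a basophil protease, was alike in both MDS arrays, at -0.78 on the WT array and 1.01 and 0.99 on them. The summed signal of the list was 255.2 on the WT array, 346.4 in replicate 1 and 221.5 in replicate 2, with 10, 13 and 12 of 14 genes above background. Of 7 eosinophil genes, 3 were 2-fold above WT in both arrays, with medians of 2.56 and 0.28. Ear2, a ribonuclease of eosinophils, read -0.65, 3.79 and 1.29, with 2.87 on the other WT array, and Prg2, the major basic protein, 1.79, 4.78 and 2.99. Against the WT array of the other slide the median of the eosinophil list was -0.02.

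Late neutrophil granule genes mostly stood above the WT array of the slide in both MDS samples, whereas the WT array of the other slide lay among them. Of 11 tested, 8 were at least 2-fold above and 1 below, with medians of 2.56 in replicate 1 and 1.89 in replicate 2; against the other WT array the median was -0.18. Lcn2, an iron-binding granule protein, read -1.64 on the WT array, 2.53 in replicate 1 and 1.92 in replicate 2, a difference of 3.86 ± 0.85 (limma adjusted p = 0.352), and both were also above the other WT array, at 0.04. S100a8, a calprotectin subunit, read 0.91, 5.54 and 2.80, with 4.08 on the other WT array, which lies between the MDS arrays. Chil3, a chitinase-like granule protein, read -1.36, 2.99 and 1.08, and Retnlg, a resistin-like protein, was at least 8.16-fold above WT, at 1.24 and -0.17 on the MDS arrays. Both MDS arrays were also above the other WT array for Chil3, at 0.41 there, and for Retnlg, at -0.61. Camp, an antimicrobial peptide, read -0.79, 1.77 and 1.38, and 2.71 on the other WT array, so that its direction turns. The member below WT was Cxcr2, a chemokine receptor of mature neutrophils, above background on the WT array only. The summed signal of the list was 56.57, 143 and 72.7, with 8, 10 and 11 of 14 genes above background; the part of mature cells in the sort was not tested. Genes of the earlier promyelocyte stage gave 0 of 9 at 2-fold, a median of 0.45, and opposite sides for the MDS arrays (0.66 and -0.15). Mpo, the myeloperoxidase of promyelocytes, read 9.31, 9.47 and 8.99, with 6.79 on the other WT array.

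**Figure D3:**
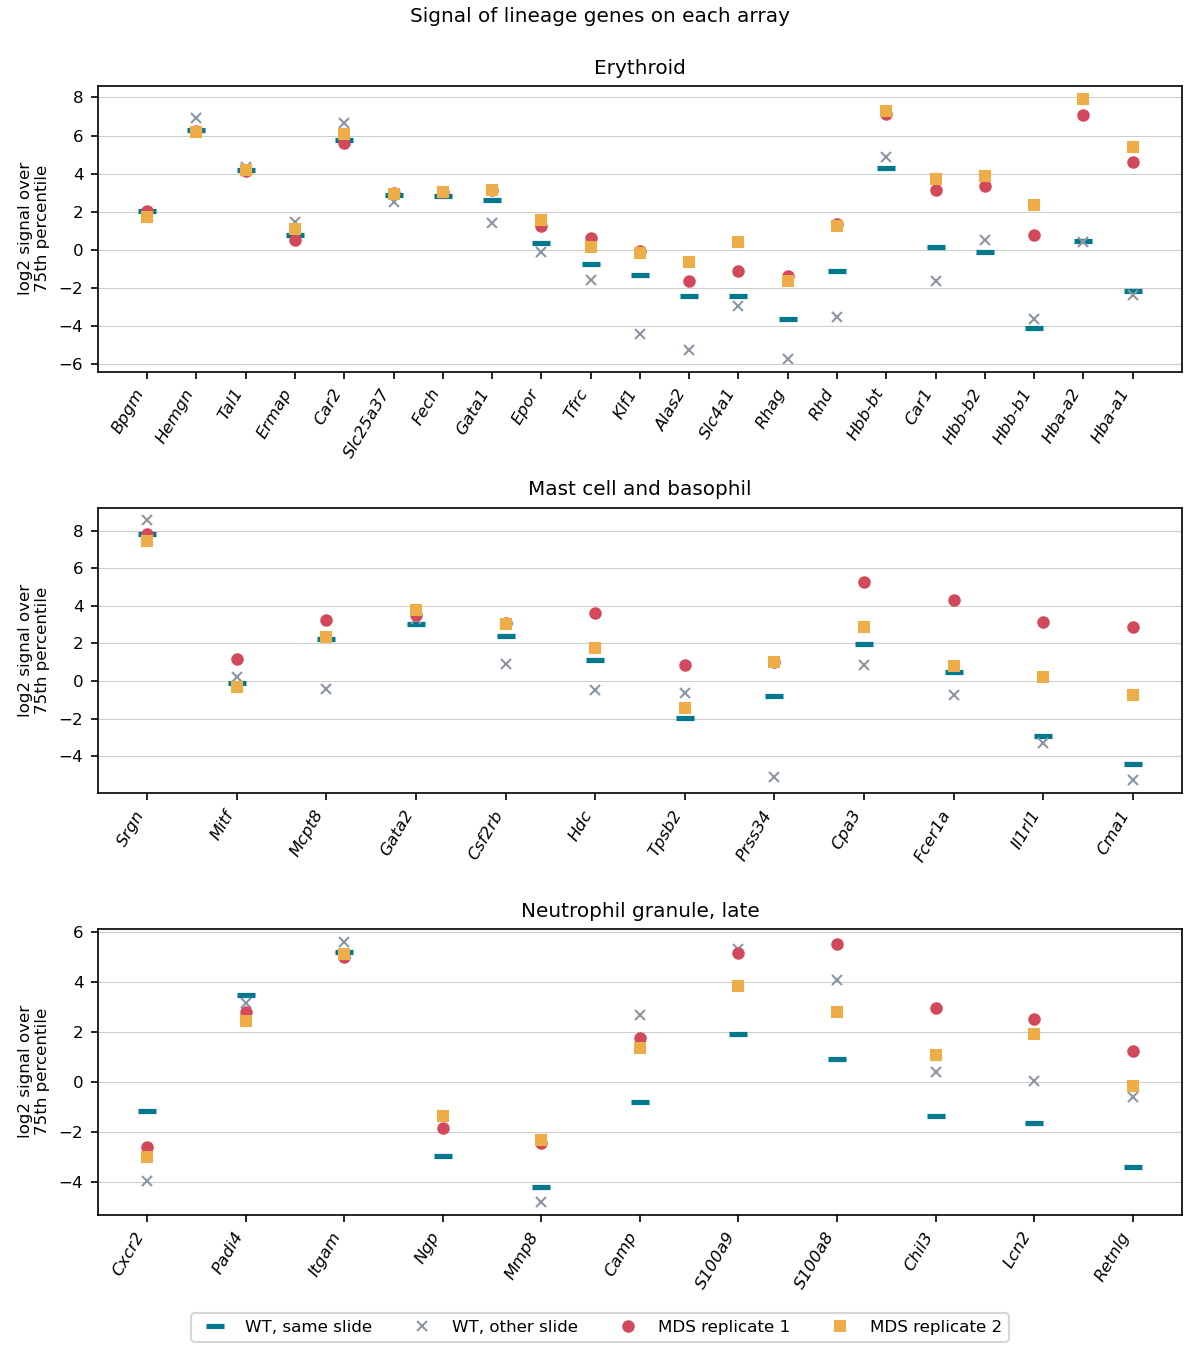
Signal (log2 over the 75th percentile, vertical axis) of every tested member of the erythroid, mast cell and basophil, and late neutrophil lists on the WT array of the slide (bars), the WT array of the other slide (crosses), MDS replicate 1 (circles) and MDS replicate 2 (squares). Both MDS arrays lie above both WT arrays for the globins, replicate 1 lies above replicate 2 for Cma1, Il1rl1 and Fcer1a, and the other WT array lies among or above the MDS arrays for S100a8, S100a9 and Camp.

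Among monocyte, macrophage and dendritic cell genes, 5 of 16 were at least 2-fold above WT in both arrays and 1 below, with a median of 0.48. The median was 0.12 over the 11 genes above background on all 3 arrays, and 0.48 over all 18 on the array. Spib, a transcription factor of plasmacytoid dendritic and B cells, read -4.44 (not above background) on the WT array, 0.67 in replicate 1 and -1.33 in replicate 2, at least 4.49-fold above WT. F13a1, a factor XIII subunit made by monocytes, read 2.80, 4.77 and 4.17, a difference of 1.67 ± 0.48. Vcam1, an adhesion molecule, was at least 3.61-fold above WT by the probe used, whereas its other probe was not above background on any of the 3 arrays. Apart from F13a1, the 5 genes above WT were not above background on the WT array and entered through the MDS arrays alone. Csf1r and Irf8, the receptor and the transcription factor that mark committed monocyte progenitors, were at -0.23 and 0.12, and Csf1r turned to 1.0 against the other WT array. Of 12 transcription factors of myeloid fate, 1 was 2-fold above WT and 1 below: Id2, an inhibitor of helix-loop-helix factors, read -0.31, 2.83 and 2.01, a difference of 2.73 ± 0.60 (limma adjusted p = 0.352), and Klf4, a monocyte factor, 0.40, -0.74 and -1.58. Spi1, which encodes PU.1, differed by 1.08 ± 0.70. In the MHC class II list, 3 of 9 genes were above and 1 below. Cd74, the invariant chain, read 1.77, 4.54 and 3.60, and H2-Eb1 4.47, 6.17 and 5.70, while Ciita, their transactivator, read -0.86, -1.95 and -2.0, which turns to 1.76 above the WT array of the other slide. Summed over the class II genes, the signal was 161.4 on the WT array, 288.5 in replicate 1 and 221.5 in replicate 2.

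Genes of lymphoid priming, the low expression of lymphoid genes in multipotent progenitors, were at least 2-fold above WT in 4 of 10, with 0 below and medians of 0.47 and 1.01. Ly6d, an antigen of early B lineage progenitors, read -0.76 on the WT array, 2.48 in replicate 1 and 1.52 in replicate 2, a difference of 2.76 ± 0.70. Ccr9, the thymus homing receptor, was not above background on the WT array and stood at least 5.43-fold above it, and Satb1, a chromatin organiser of lymphoid progenitors, read 2.41, 3.43 and 3.87. Both MDS arrays were above both WT arrays for Ly6d, Ccr9 and Satb1. Flt3, the receptor of multipotent lymphoid-primed cells, read 5.13, 5.91 and 6.34, a difference of 0.99 ± 0.90, and Dntt, the terminal transferase of early lymphoid cells, 7.06, 7.22 and 7.87. In the B cell list, 3 of 8 were 2-fold above WT in both arrays: the IgM receptor Fcmr at least 8.70-fold, Ms4a1 at least 5.19-fold, and the coactivator Pou2af1 at least 2.0-fold. All 3 were higher in replicate 1 than in replicate 2, and all 3 entered through the MDS arrays alone, being not above background on the WT array. The list median was 0.18, and 0.0142 over the 4 genes above background on all 3 arrays, with a summed signal of 25.51, 30.6 and 26.17. In the NK cell list, 3 of 7 were above and 0 below: the granzymes Gzmb and Gzma at least 15.4-fold and 2.80-fold, and the receptor chain Klrd1 at least 2.70-fold, while Nkg7, which the WT array gave at 6.71, was at 5.92 and 5.43. These 3 genes were not above background on the WT array and entered through the MDS arrays alone, and over the 4 genes above background on all 3 arrays the list median turned to -0.28. The summed signal of that list was 111.1, 76.09 and 53.17, lower in both MDS arrays. T cell genes gave 0 above and 1 below of 7 (Cd28), with a median of -0.15.

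Stem cell genes lay near the WT array. Of 23 tested, 12 were below WT in both arrays and 3 above, 0 of them at least 2-fold below, with a median of -0.30. Procr, the endothelial protein C receptor of stem cells, read 3.03, 3.06 and 2.81, and Esam, an adhesion molecule of stem cells, 2.45, 1.58 and 1.23. Vwf, von Willebrand factor of platelet-biased stem cells, read 1.70, 0.86 and 0.80. In the megakaryocyte and platelet list of 16 tested genes, the platelet chemokine Ppbp stood at least 1.51-fold above WT, but 4.03 below the WT array of the other slide on the log2 scale. Among 14 genes of the niche and of homing, 3 were above: Cxcr4, the receptor that holds stem cells in the marrow, at 2.06, 3.45 and 3.58, the integrin subunit Itgb2 at 0.13, 1.42 and 1.59, and Vcam1. Epor and Tfrc, the receptors for erythropoietin and transferrin, were 1.05 ± 1.45 and 1.13 ± 0.56 above WT.

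Immediate early genes, which cells transcribe within minutes of a stimulus, had the lowest median of the 38 lists. All 18 tested were below the WT array in both MDS arrays, 13 of them at least 2-fold, with medians of -1.66 in replicate 1 and -2.07 in replicate 2. Klf2, a factor of quiescence in lymphocytes and endothelium, read 4.98 on the WT array, 1.0 in replicate 1 and 0.26 in replicate 2. Fos, a subunit of AP-1, read 6.60, 2.94 and 1.87, and Dusp1, a MAP kinase phosphatase, 5.93, 2.44 and 2.02. Atf3, a stress-induced factor of the CREB family, was above background on the WT array only, and WT stood at least 7.43-fold above MDS. The differences were -4.35 ± 2.33 for Klf2, -4.20 ± 2.92 for Fos and -3.70 ± 1.96 for Dusp1, with limma adjusted p = 1.0 for each; 0 of the 18 had an unadjusted p under 0.05. These errors take in the spread of the MDS/MPN arrays, where Fos read -1.16, 6.53 and 0.06 and the second array was close to WT. The WT array of the other slide was higher still, at 8.52 for Klf2 and 5.09 for Atf3, and the median of the list against it was -4.14. The summed signal of the 20 genes on the array was 637.4 on the WT array, 217 in replicate 1 and 212 in replicate 2.

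Promoters of 3 of these genes are shown because they carry the core of the cAMP response element, TGACGT, the site for factors of the CREB and ATF family. It was found in 5 of 17 windows of immediate early genes with an entry, against 6.47% of all 32851 windows, and in none at Klf2, while the AP-1 motif TGACTCA was in 0 of the 17 and 4.46% of all. The palindrome TGACGTCA counts once on each strand, so that Dusp1 has 3 matches, a number reached by 0.152% of windows. The windows are 250 bases upstream of the start in RefSeq sequence of GRCm38.p6, printed along the gene: Fos at chr12:85473640-85473889 (plus strand), Dusp1 at chr17:26508473-26508722 (minus strand) and Atf3 at chr1:191183334-191183583 (minus strand). Capitals mark the motif on either strand, and a match is a description of letters, not a measured site.
Fos: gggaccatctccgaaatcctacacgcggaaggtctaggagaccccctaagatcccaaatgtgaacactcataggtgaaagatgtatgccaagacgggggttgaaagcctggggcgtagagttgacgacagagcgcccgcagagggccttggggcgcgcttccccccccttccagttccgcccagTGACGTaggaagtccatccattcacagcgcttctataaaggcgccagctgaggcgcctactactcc
Dusp1: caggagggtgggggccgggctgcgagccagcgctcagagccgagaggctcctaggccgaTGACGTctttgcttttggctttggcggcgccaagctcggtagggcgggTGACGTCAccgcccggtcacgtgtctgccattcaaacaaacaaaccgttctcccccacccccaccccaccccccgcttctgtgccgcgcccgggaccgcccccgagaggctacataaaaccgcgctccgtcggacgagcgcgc
Atf3: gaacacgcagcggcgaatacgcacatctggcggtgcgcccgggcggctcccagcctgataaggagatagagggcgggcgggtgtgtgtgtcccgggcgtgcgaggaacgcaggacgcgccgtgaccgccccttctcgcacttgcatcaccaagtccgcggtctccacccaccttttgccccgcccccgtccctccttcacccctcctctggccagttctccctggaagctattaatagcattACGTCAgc

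Genes that glucocorticoids induce, with the metallothioneins, stood above the WT array of the slide in both MDS samples. All 8 tested were above WT in both arrays and 7 at least 2-fold, with medians of 1.93 and 2.56, and 7 had an unadjusted limma p under 0.05. Of all 19134 features tested, 28.4% were above WT in both arrays and 2.61% at least 2-fold, and 251 were higher at that unadjusted p. Per1, a clock gene with glucocorticoid response elements, read 1.73 on the WT array, 4.81 in replicate 1 and 5.83 in replicate 2, a difference of 3.59 ± 0.64 (limma adjusted p = 0.232). Tsc22d3, the glucocorticoid-induced leucine zipper, read 4.19, 6.15 and 6.85, and Mt2, a metal-binding protein, 0.64, 5.34 and 5.14. These 3 genes were named among list members with both MDS arrays on 1 side of WT. Their lack of overlap with the WT array of the slide was thus fixed by that choice. The WT array of the other slide did not share the low level: it read 6.62 for Mt2, 6.82 for Mt1, 7.07 for Tsc22d3 and 4.96 for Per1, and the median of the list against it was -0.39, with Mt2 at -1.38 and Tsc22d3 at -0.57. Fkbp5, a co-chaperone of the glucocorticoid receptor, stood above both WT arrays, at 3.21 on that of the slide, 2.63 on the other, 4.81 in replicate 1 and 4.68 in replicate 2. Zbtb16, the factor PLZF, likewise read -0.46, -0.99, 0.59 and 1.36. Over the 9 genes on the array the signal summed to 61.51 on the WT array, 337.9 in replicate 1 and 411.6 in replicate 2.

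Interferon-stimulated genes were below the WT array in 11 of 14 cases in both arrays, 3 of them at least 2-fold, with medians of -0.88 and -0.65. Isg15, a ubiquitin-like modifier, read 3.94 on the WT array, 2.65 in replicate 1 and 2.60 in replicate 2, a difference of -1.32 ± 0.62, and Usp18, the protease that removes it, 1.90, 0.63 and 0.77. On the other WT array they read 2.76 and 0.72, near the MDS arrays, and the list median against it was -0.05. The 10 inflammatory genes tested had a median of -0.20, which became -2.73 over 13 genes against the other WT array and 0.06 without MDS replicate 1. Tnf was 2-fold below WT, at 0.24, -2.47 and -2.82, and above background on 1 MDS array. By contrast, Nfkbia, the inhibitor of NF-kB, read 4.64, 5.04 and 5.71 and turned to -1.67 against the other WT array.

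**Figure D4:**
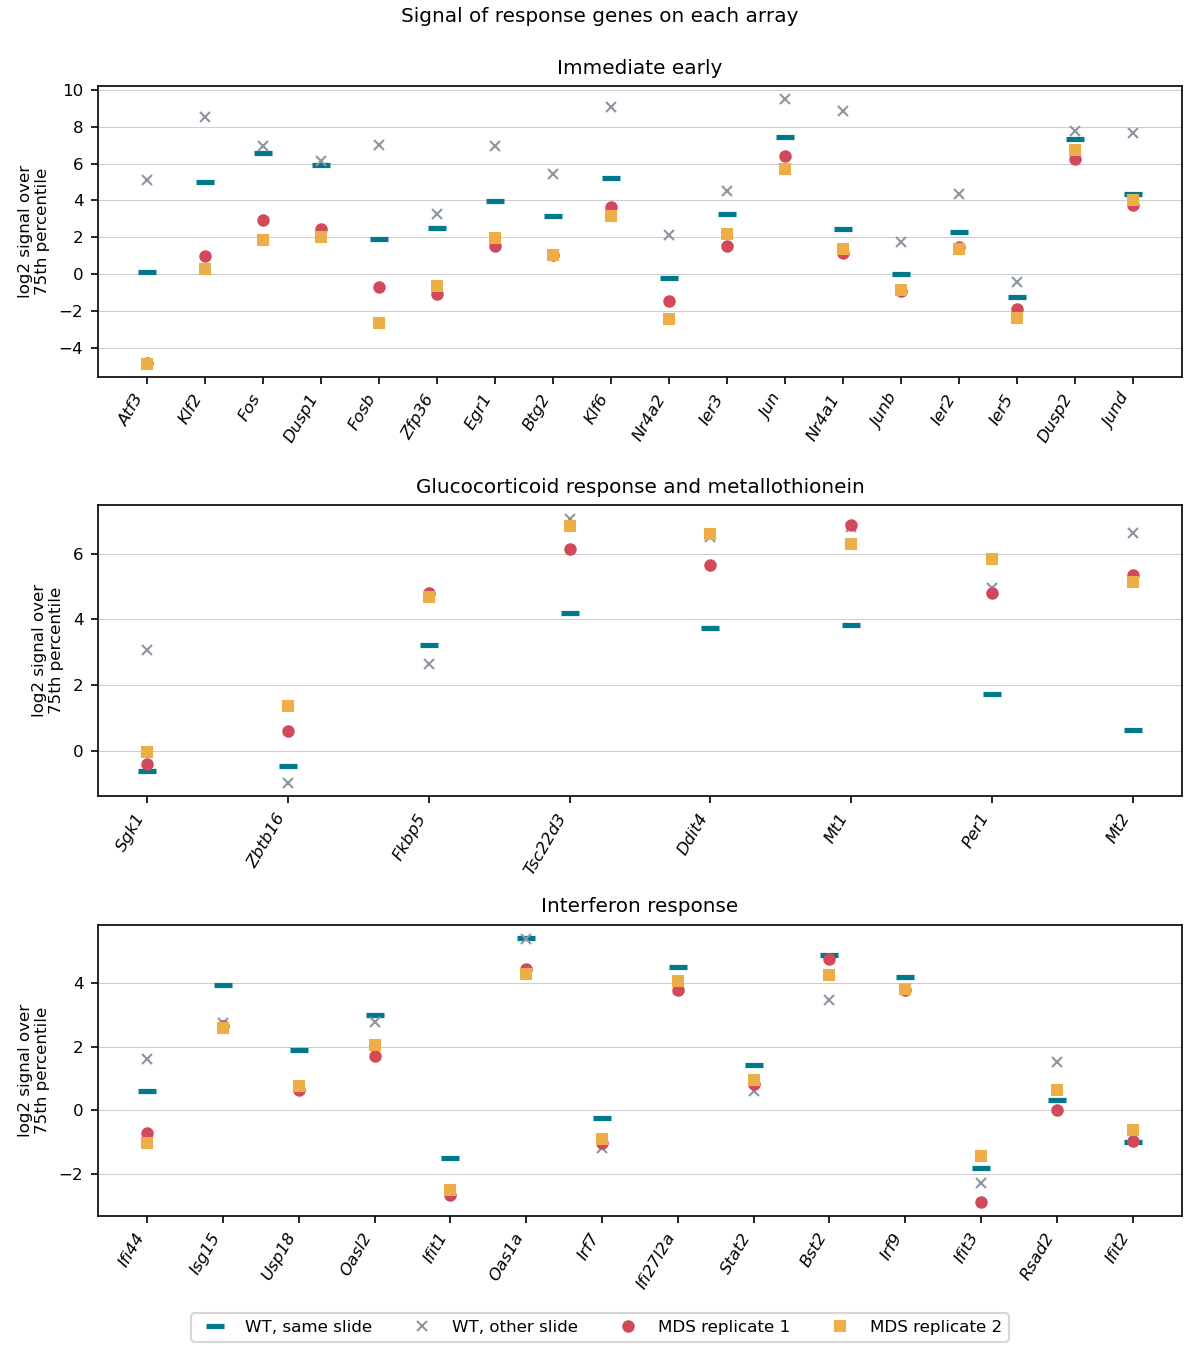
Signal (log2 over the 75th percentile, vertical axis) of every tested member of the immediate early, glucocorticoid and metallothionein, and interferon lists on the WT array of the slide (bars), the WT array of the other slide (crosses), MDS replicate 1 (circles) and MDS replicate 2 (squares). Both WT arrays lie above the MDS arrays for all 18 immediate early genes, while for Mt2 and Tsc22d3 the WT array of the slide lies below the MDS arrays and that of the other slide above them.

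Genes of cell survival are set beside all features tested, of which 2.61% were at least 2-fold above WT in both arrays and 4.21% below. In the p53 target list, 2 of 17 were above and 1 below, with a median of 0.10, or -0.0131 against the other WT array: the death effector Perp read -0.50, 1.20 and 1.27 but lies 0.49 below the other WT array on the log2 scale, the RNA-binding protein Zmat3 read -2.13, 0.03 and -0.72, and the stress cytokine Gdf15 1.05, -2.52 and -3.73. In the Bcl2 family, 2 of 11 were above and 0 below. Bmf, a BH3-only activator of cell death, read -2.17 on the WT array, 0.63 in replicate 1 and 2.17 in replicate 2, a difference of 3.57 ± 0.75 (limma adjusted p = 0.325), and -2.31 on the other WT array. Both MDS arrays were thus above both WT arrays for Bmf, while Mcl1, a survival protein that stem cells need, was at 0.27 ± 0.49 and at -1.40 against the other WT array. In the TGF-beta and BMP list, 2 of 11 were above, Id2 and Id1, and Id1 turned to -5.80 against the other WT array. Of 23 genes that are mutated in human MDS, 0 were 2-fold from WT in both arrays, with a median of 0.0014 and 9 above and 9 below; Tet2, a DNA demethylase, was at 0.69 ± 0.60.

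The 12 named genes farthest above WT, by the smaller of both differences and with signal above background on both MDS arrays, included Trnp1, Hba-a1, Hba-a2, Hbb-b1, Mt2 and Fcmr. Trnp1, a nuclear regulator of cell cycle and neural progenitors, was not above background on the WT array, read 2.95 in replicate 1 and 4.03 in replicate 2, and stood at least 63.3-fold above WT; its second probe, also not above background on the WT array, read 0.40 and 1.71 on the MDS arrays. In the MDS/MPN arrays Trnp1 read 4.52, -4.11 and 3.96. Chl1, a neural adhesion molecule, was at least 6.95-fold above WT, with a second probe at -1.25 and -0.70 on the MDS arrays and not above background on the WT array, and Slc27a2, a fatty acid transporter, at least 8.27-fold. Bmpr1a, a receptor for bone morphogenetic proteins, was not above background on the WT array and stood at least 5.04-fold above it, with -0.11 and -0.22 on the MDS arrays and -2.06 on the other WT array. The collagen gene Col5a1 was at least 4.96-fold, the small GTPase gene Rab15 at least 3.48-fold by 1 of its 2 probes, and the tight junction gene Cldn5 at least 3.27-fold, but Cldn5 turned to -4.75 against the other WT array.

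The 12 named genes farthest below WT all exceeded background in the WT sample and in neither MDS sample. They were Hspa1a, Cntn5, Ttll13, Kcnj15, Prr22, Padi6, Olfr1276, Serpina9, Ncan, Lrat, 4930447N08Rik and 4933405L10Rik, with WT at least 8.12-fold to 14.5-fold above MDS. Cntn5 and Ncan are known from brain, Padi6 from oocytes, and Olfr1276 is an olfactory receptor gene. Of the 12, only Hspa1a, an inducible heat shock protein, was brighter on the WT array of the other slide, at 1.85, than on that of this slide, at 0.96; Cntn5 read 1.05 on the WT array of this slide and -5.41 on the other, where it was not above background. Serpina9 was above background on the WT array of the other slide, at -3.1. Apart from it and Hspa1a, the 12 were above background on neither that array nor an MDS array. Their direction against that array was thus not measured. For Ttll13, Kcnj15 and Olfr1276 a second probe was not above background on any of the 3 arrays compared.

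The MDS samples differed from each other at least 2-fold in the 957 features given above. Ccl2, a monocyte chemokine, read 2.49 in replicate 1 and -1.39 in replicate 2, Chst1, a sulfotransferase, 3.08 and -0.05, and Wfdc21, a secreted protein with a WAP domain, 2.27 and -0.84. With Cma1, Fcer1a and Il1rl1 they were the 6 genes with the largest excess in replicate 1 among those above background in both, and Cma1, Fcer1a and Il1rl1 are members of the mast cell list. In the opposite direction stood Mc3r, a melanocortin receptor (-2.02 and 2.01), Lyrm7, an assembly factor of complex III (-2.53 and 0.29), Cdk5rap1 (1.33 and 4.05), Mtus2 (-1.68 and 1.08), Pdcd1, which encodes PD-1 (-1.83 and 0.52), and Gpr137b (-1.63 and 0.63). With 1 array per sample these differences have no test.

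Set beside the 3 MDS/MPN arrays of the slide, MDS gave 0 features called by limma (0.0% of 19134, lowest adjusted p 0.706), with 595 higher and 262 lower in MDS at an unadjusted p under 0.05. The MDS/MPN arrays lie in the second line of the slide and the MDS arrays in the first, so that disease and line cannot be told apart. The MDS/MPN arrays also differed in brightness, with 75th percentiles of 99.82, 341.9 and 110. Their shares of probes well above background were 32.54%, 47.54% and 37.32%. In the list of Y-linked genes and Xist, the 3 genes tested had a median 2.885 higher in MDS than in MDS/MPN. Whether brightness, sex or donor took part in the differences was not tested. Tsc22d3 read 3.91, 3.66 and 3.75 in MDS/MPN, below the WT array, and 6.15 and 6.85 in MDS, a difference between the diseases of 2.73 ± 0.36. Bmf read -1.75, -2.50 and -1.61 in MDS/MPN and was 3.35 ± 0.56 higher in MDS. Procr and Kit were 2.52 ± 0.51 and 1.21 ± 0.32 higher in MDS, and Cd74 was -1.77 ± 0.45. The median of the stem cell list was 1.06 higher in MDS than in MDS/MPN, and that of the early neutrophil list was at -0.92, beside a median over all features of -0.02. Both medians use the MDS arrays that also enter the comparison with WT.

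**Figure D5:**
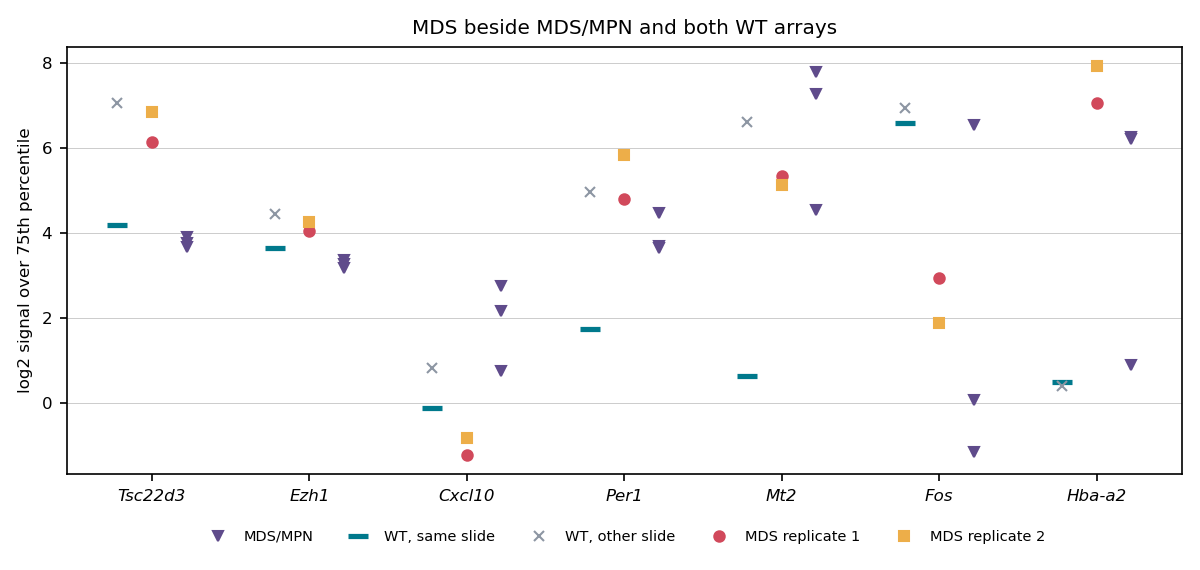
Signal (log2 over the 75th percentile, vertical axis) of 7 genes on the WT array of the slide (bars), the WT array of the other slide (crosses), the 2 MDS arrays (circle and square) and the 3 MDS/MPN arrays (triangles). For Tsc22d3 and Ezh1 the MDS arrays lie above the WT array of the slide and the MDS/MPN arrays below it, and for Cxcl10 the order is the opposite; for Fos and Hba-a2 the MDS/MPN arrays are spread from near WT to beyond or near MDS.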

How the data were processed

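The deposited scanner files hold an intensity per spot that, per the file headers (Feature Extraction 10.7.1.1), was spatially detrended after background subtraction, a surrogate standing in for low values; the submitters' processing notes name version 9.1. The deposited value table holds a ratio of the same intensity to a scale of its array, and was used here only to match its columns to scanner files.

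Spots of 1 probe were averaged without control and outlier spots, and log2 values were taken over the array's 75th percentile. Probes were named through RefSeq accessions (GRCm38.p6; 27656 probes, 20972 genes), each gene taking its brightest probe; 28025 unnamed probes were kept. Features that Feature Extraction called well above background on the WT array or on both MDS arrays entered limma 3.58.1 (R 4.3.3; lmFit, eBayes) over the 8 arrays of the slide in 5 groups, with Benjamini-Hochberg adjustment and a threshold of 0.05. The number of arrays limits the precision. Other versions were matplotlib 3.10.9, pandas 2.3.3, numpy 2.4.6 and Python 3.11.15.

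Named were the PRC2 subunits, 12 genes per direction by the smaller of both differences, up to 4 per list and 6 per direction between the MDS arrays. Hbb-bt, Car1, Rhd, Klf1, Alas2, Slc4a1, S100a8, S100a9, Mpo, F13a1, Csf1r, Irf8, Dntt, Procr, Cxcr2, Tfrc, Mcl1, Fkbp5 and Zbtb16 were chosen after their values were seen. The comparison and the lists were chosen with earlier results of these data known. Results for some genes of the lists are not reported here.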

Additional observations from a re-analysis of the deposited data

Results flagged for a closer look

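For 4 genes named above, both MDS arrays lay on 1 side of the WT array of the slide and all 3 MDS/MPN arrays on the other. Genes of the lists were named partly because both MDS arrays lay on 1 side of WT. How many of all 19134 features show the pattern was not counted, so these 4 cannot be called unusual. MDS minus MDS/MPN was 2.73 for Tsc22d3 (limma adjusted p = 0.706), 0.88 for Ezh1 (adjusted p = 1.0), 1.21 for Kit (adjusted p = 0.929) and -2.92 for Cxcl10 (adjusted p = 0.887). None passed the test of that difference, and the groups share the WT array and lie in different lines of the slide.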

How the results depend on the processing

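Limits: 1 WT array carries every difference, and its time label conflicts between the deposited files. No paired analysis was possible because the WT group has 1 array and shares fewer than 2 replicate numbers with MDS. Limma called 0 features in either direction under these alternatives: the MDS/MPN_TC array as its own group, trend with robust fitting, normexp, no filter, all 3 arrays above background, the median probe, and without either MDS replicate (0 to 0 in each direction). With the MDS and WT arrays only it called 136 up and 381 down, with quantile normalization 4 and 191, with scaling on the median of probes above background 0 and 61, and with the WT array of the other slide 0 and 1. Features at least 2-fold from WT in both MDS arrays, 499 up and 805 down, became 161 and 286 with normexp, 790 and 2757 with no filter, 250 and 165 with all 3 arrays above background, 1339 and 2477 with the WT array of the other slide, and 1330 to 1544 up and 1211 to 1481 down without 1 MDS replicate, when a single array has to pass. The share of these features above WT was 38.27%, 44.4% with quantile normalization, 46.69% with median scaling, 22.27% with no filter and 56.04% without replicate 1. The median difference of all features moved from -0.10 to 0.03 with median scaling. Of 131 genes given in the text, 48 passed limma with the MDS and WT arrays only, 10 with quantile normalization and 9 with median scaling. The median turned sign in 12 of 38 lists with the WT array of the other slide, in 2 to 3 with each other scaling, background or filter, in 6 with the median probe and in 5 and 7 without replicate 1 or 2.

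With the WT array of the other slide, 22 genes turned direction: Camp to -1.13, Cd34 to 0.33, Ciita to 1.76, Cldn5 to -4.75, Csf1r to 1.0, Ear2 to -0.33, Ezh1 to -0.30, Ezh2 to 0.0515, Hoxa10 to -0.61, Id1 to -5.80, Jchain to -1.27, Kit to -0.00688, Mcl1 to -1.40, Mpo to 2.44, Mt1 to -0.24, Mt2 to -1.38, Mtus2 to -0.24, Nfkbia to -1.67, Perp to -0.49, Ppbp to -4.03, S100a9 to -0.79 and Tsc22d3 to -0.57. Median scaling turned Mpo to 0.047 and Procr to 0.0344, normexp Mpo to 0.0641 and Procr to 0.0141, and the median probe Cdk5rap1 to -0.17 and Gpr137b to -0.0376. Leaving out replicate 1 or 2 turned Irf8 (-0.13 to 0.37), Cdk5rap1 (-1.15 to 1.58), Gpr137b (-0.17 to 2.09), Mc3r (-1.78 to 2.25), Mpo (-0.32 to 0.16), Mtus2 (-0.50 to 2.26) and Procr (-0.217 to 0.0289). Genes above background neither on the WT array of the other slide nor on both MDS arrays did not enter the fit with that array. The 22 genes leave them out. The cause of the turns was not tested.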

Other observations

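Genes outside the lists, chosen after their values were seen, included further known targets of the glucocorticoid receptor. Klf9, a Krüppel-like factor, read 0.24 on the WT array, 2.22 in MDS replicate 1 and 2.5 in replicate 2, with 1.86 on the WT array of the other slide. Hif3a, a hypoxia-inducible factor subunit, read -1.99, 1.82 and 1.22, with -1.46 on the other WT array, and Glcci1, a glucocorticoid-induced transcript, -1.27, 0.90 and 0.88, with -0.96. Both MDS arrays were above both WT arrays for each of the 3 genes, none of which passed limma.

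A pair of genes of antibody-secreting cells, also chosen after their values were seen, read higher in replicate 1 than in replicate 2. Mzb1, an endoplasmic reticulum protein of antibody-secreting cells, was at least 5.75-fold above WT, at 1.19 in replicate 1 and -1.13 in replicate 2. Jchain, the joining chain of secreted antibodies, read -2.25 on the WT array, 1.58 and -0.60 on the MDS arrays, and 1.76 on the other WT array. Cd69, an early activation antigen, stood below WT like the immediate early genes, at 3.10, 1.13 and 1.05, with 4.54 on the other WT array.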
